A study of Mus musculus with 3 samples.

Results

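The 32 genes described here carry pyruvate into mitochondria, run the tricarboxylic acid (TCA) cycle and connect the cycle to glutamate. They were chosen by gene symbol from a list of enzymes, subunits, regulators and carriers, and the rule itself used no measured value. The list was, however, put together with earlier results of these data known. All 32 symbols were found among the 44788 symbols of the count table. Pyruvate from glycolysis crosses the inner mitochondrial membrane through a carrier. The pyruvate dehydrogenase complex turns it into acetyl-CoA, and kinases switch that complex off. Citrate synthase joins acetyl-CoA to oxaloacetate, and the later steps of the cycle release carbon dioxide and regenerate oxaloacetate. In activated T cells glutamine feeds the cycle through glutamate and oxoglutarate, and citrate leaves the mitochondrion as a source of acetyl-CoA for lipids and histones.

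RNA was sequenced from splenic T lymphocytes of female BALB/c mice aged 6 to 8 weeks, taken with magnetic beads against CD90.2, a surface protein of mouse T cells. All 3 libraries (replicates 1, 2 and 3) came from cells cultured for 15 h with LZ-8, an immunomodulatory protein of the fungus Ganoderma lucidum, in medium with fetal bovine serum. With no untreated cells analysed here, none of the levels measures what LZ-8 changed. Separate mice or cultures are not named in the labels, and the replicates may therefore differ only technically.

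Totals per library were 12669690 to 19041670 counts, and 19814 to 20896 symbols had at least 1 read in a library. With no read, a gene could still have had a level of 0.158, 0.237 or 0.204 CPM (counts per 1000000 counts) in replicates 1, 2 and 3 respectively. Such limits and the intervals below cover counting error only. All 8 T cell markers were present, at a summed 3615 to 3747 CPM, with Cd6 (993 CPM) and Cd5 (658 CPM) highest. The 6 B cell markers summed to 16.7 to 18.5 CPM, with Pax5 at 3.84 CPM. Monocyte and macrophage markers (6 genes) gave 3.95 to 4.82 CPM in sum, led by Cd68 (4.08 CPM), and Csf1r and C1qa had no read. The 6 erythroid markers summed to 2.31 to 2.57 CPM, led by Hba-a2 (0.955 CPM) and Hba-a1 (0.731 CPM), and Alas2 had no read. The 6 neutrophil markers summed to 0.158 to 0.680 CPM, with Elane at 0. In bulk RNA, fewer cells that use a gene and less RNA per cell cannot be told apart.

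For 4 of the genes (Mpc1, Got2, Suclg2 and Pdhb) a processed pseudogene, an intronless genomic copy of the messenger RNA, held a large share of the reads of their sequence. These pairs are shown first because the levels of the 4 genes change most when the pseudogene reads are added. Each pair below is a stretch of 120 bases of the coding sequence and the matching stretch of the pseudogene, 5′ to 3′ on the strand of the coding sequence (GRCm38). The coding sequence is that of the transcript most like the pseudogene. Each stretch is the one without gaps that has the most differing bases (the first of ties), so it is not typical of the whole alignment. Positions are counted from 1 at the first base of the coding sequence or of the pseudogene, and capitals mark the bases that differ. The pairs are Mpc1 and Mpc1-ps (bases 1 to 120 of both), Got2 and Got2-ps1 (457 to 576 of both), Suclg2 and Gm15163 (1 to 120 of both), and Pdhb (742 to 861) and Gm6123 (731 to 850).
Mpc1: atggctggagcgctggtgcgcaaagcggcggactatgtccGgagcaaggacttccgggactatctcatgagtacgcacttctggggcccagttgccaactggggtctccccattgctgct
Mpc1-ps: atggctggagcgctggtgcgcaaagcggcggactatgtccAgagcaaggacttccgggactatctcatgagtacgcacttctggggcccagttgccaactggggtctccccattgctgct
Got2: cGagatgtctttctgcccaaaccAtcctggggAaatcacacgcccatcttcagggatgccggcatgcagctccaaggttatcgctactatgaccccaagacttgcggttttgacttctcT
Got2-ps1: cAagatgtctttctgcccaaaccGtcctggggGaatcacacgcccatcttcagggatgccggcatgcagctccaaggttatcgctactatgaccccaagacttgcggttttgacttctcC
Suclg2: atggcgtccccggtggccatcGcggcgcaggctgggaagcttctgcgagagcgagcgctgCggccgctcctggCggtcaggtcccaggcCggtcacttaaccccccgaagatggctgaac
Gm15163: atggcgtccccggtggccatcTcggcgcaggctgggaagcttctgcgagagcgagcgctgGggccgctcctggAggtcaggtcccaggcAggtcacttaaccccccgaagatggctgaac
Pdhb: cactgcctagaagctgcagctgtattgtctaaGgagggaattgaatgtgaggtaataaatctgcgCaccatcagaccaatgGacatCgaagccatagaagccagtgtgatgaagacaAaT
Gm6123: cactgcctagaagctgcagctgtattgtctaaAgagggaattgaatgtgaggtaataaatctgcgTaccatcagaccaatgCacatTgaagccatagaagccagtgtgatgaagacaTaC
The Mpc1 pair differed at 1 base of this stretch, the Got2 and Suclg2 pairs at 4 bases and the Pdhb pair at 6 bases. Over the whole alignment Mpc1-ps differed from the 330 coding bases of Mpc1 at 1 base, with an identical run of 289 bases. Got2-ps1 differed from the 1293 coding bases of Got2 at 11, with a longest identical run of 315 bases. Gm15163 differed from the 1302 coding bases of Suclg2 at 14 (longest identical run 231 bases), and Gm6123 differed from Pdhb at 19 of 1066 aligned bases with 13 gap bases (longest identical run 172 bases). A read inside such a run has the same letters in the gene and in the pseudogene.

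All 32 genes were expressed at 1 CPM or more, and as a set they stood above the median of expressed genes. Their median level was 77.5 CPM, against 27.0 CPM over the 13500 genes that reached 1 CPM in at least 2 libraries. Above 100 CPM were 11 of the 32 (34.4%), against 2570 of the 13500 (19.04%). Another 18 lay between 10 and 100 CPM, and 3 (Pdk2, Pcx and Idh1) lay below 10 CPM. Reads also grow with transcript length, so an order of genes in CPM or in reads is an order of read numbers, and levels of different genes were compared per kilobase of exon. On that scale the median was 19.6 CPM per kilobase, against 8.26 over the 12787 tested genes with a known exon length, and 23 of the 32 lay above the latter. These counts describe the set and were not tested. The set was put together with earlier results of these data known, so its high levels are no independent result. Related genes with no read, such as Pdk4 and Me3, lie outside the set. Together the 32 genes took 3013, 3079 and 3092 CPM in replicates 1, 2 and 3, a mean of 3061 ± 42.5 CPM (SD, n = 3, as for every ± below).

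**Figure D1:**
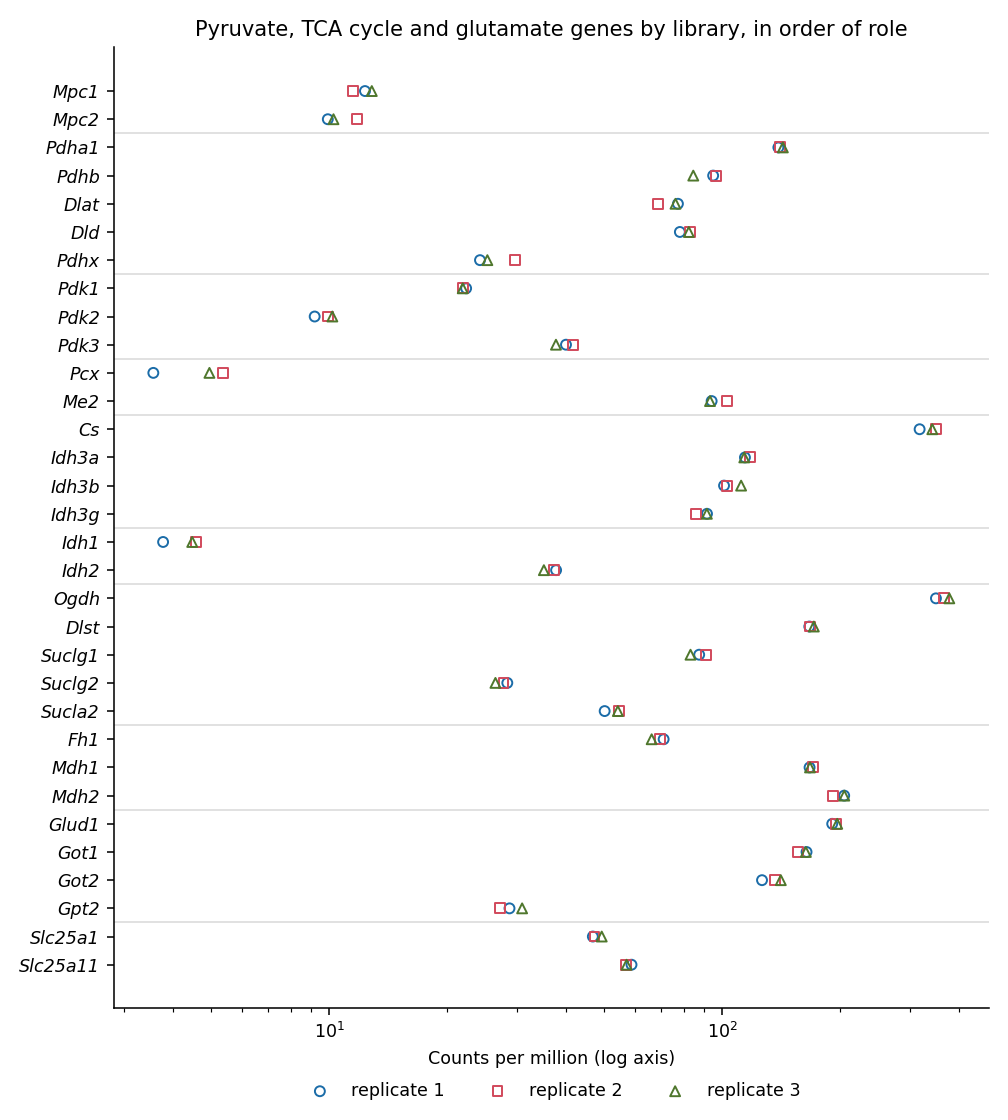
Level of each of the 32 genes in each library, in CPM on a log axis, grouped by role from the pyruvate carrier (top) to the citrate and oxoglutarate carriers (bottom), with 1 symbol per replicate. Mean levels run from 4.28 CPM (Idh1) to 365 CPM (Ogdh), and the symbols of Pcx and Pdhx lie farthest apart.

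The mitochondrial pyruvate carrier is a pair of small membrane proteins, MPC1 and MPC2, that work together. Mpc1 (chromosome 17, 8282904 to 8297661) stood at 12.3, 11.5 and 12.8 CPM in replicates 1, 2 and 3. Mpc2 (chromosome 1, 165460637 to 165481214) stood at 9.93, 11.8 and 10.3 CPM. The libraries of the carrier genes overlapped in CPM, but Mpc2 has 7344 bases of annotated exon and Mpc1 2082. Per kilobase of exon Mpc1 was therefore higher, at 5.88 ± 0.320 CPM per kilobase against 1.45 ± 0.133, a 4.06-fold difference (log2 ratio 2.02 ± 0.20). The pseudogene Mpc1-ps (chromosome 12, 110858565 to 110858894), whose sequence is shown above, held more reads than Mpc1 itself, with 747, 565 and 640 against 235, 146 and 189. Its level was 39.2, 44.6 and 43.5 CPM, above Mpc1 in every library. With Mpc1-ps and the smaller copy Gm8219 (0.677 CPM) added, the Mpc1 sequence summed to 55.4 ± 2.87 CPM, and 77.9% of that lay in the pseudogenes. The log2 ratio of Mpc1 to Mpc2 per kilobase of exon was then 4.20 in place of 2.02. Which of the loci gave rise to the reads was not tested.

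The pyruvate dehydrogenase complex has a decarboxylating enzyme (Pdha1 and Pdhb encode its alpha and beta subunits), an acetyl-transferring core (Dlat), a dehydrogenase that re-oxidises the core (Dld) and a protein that binds the latter to the core (Pdhx). Pdha1 (chromosome X, 160122209 to 160138413) had the most reads of the 5, at 139, 141 and 143 CPM. Pdhb (chromosome 14, 8165996 to 8173025) stood at 94.9, 96.7 and 84.5 CPM and was lowest in replicate 3. Dlat stood at 77.2, 68.8 and 76.1 CPM and Dld at 78.1, 82.7 and 82.3 CPM. Pdhx had the fewest reads in each library, at 24.2, 29.8 and 25.3 CPM. Per kilobase of exon the order was Pdha1 (37.7 ± 0.501), Pdhb (23.8 ± 1.71), Dld (22.0 ± 0.694), Dlat (15.2 ± 0.932) and Pdhx (6.72 ± 0.749), with overlapping libraries for Pdhb and Dld. The levels of the alpha and beta subunits differed 1.58-fold per kilobase of exon (log2 ratio 0.66 ± 0.12), although the proteins pair in the enzyme. By longest transcript the difference was 1.28-fold. With pseudogene reads added to the genes, the log2 ratio per kilobase of exon was 0.35. With Gm6123 (chromosome 1, 4771131 to 4772199), which stood at 20.6, 22.8 and 25.8 CPM, the summed Pdhb level was 115 ± 4.62 CPM. Pdhx was 2.26-fold below Dlat (log2 ratio -1.18 ± 0.25), and the direction was the same in 3 of 3 libraries. Per kilobase of longest transcript that difference was 1.74-fold.

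Pyruvate dehydrogenase kinases phosphorylate the alpha subunit and so hold back the entry of pyruvate into the cycle. Pdk3 (chromosome X, 93764607 to 93832201) stood at 40.1, 41.8 and 37.8 CPM. Pdk1, a kinase gene known as a target of hypoxia signalling, stood at 22.3, 21.9 and 21.9 CPM, and Pdk2 at 9.19, 9.94 and 10.2 CPM. Pdk4, the kinase gene known for its rise in fasted muscle and liver, had no read in any library. Per kilobase of exon Pdk3 held 73.0%, 73.3% and 71.0% of the summed level of the 4 kinases, a mean of 72.4 ± 1.27%. The rest was shared by Pdk2 (14.4%) and Pdk1 (13.2%). Pdk3 was 5.49-fold above Pdk1 (log2 ratio of Pdk1 to Pdk3 -2.46 ± 0.07) and 5.03-fold above Pdk2 (-2.33 ± 0.12 for Pdk2 to Pdk3). Measured on the longest transcript of each gene, Pdk3 still held 68.7 ± 1.36%. In reads, with no length scaling, Pdk3 was 1.81-fold above Pdk1 and 4.07-fold above Pdk2. The order of Pdk1 and Pdk2 depended on the length: their log2 ratio was -0.13 ± 0.09 per kilobase of exon and 1.17 in reads.

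Of the other routes between pyruvate and the cycle, the malic enzyme was far above the carboxylase. Pcx encodes pyruvate carboxylase, which makes oxaloacetate directly from pyruvate. It had 68, 68 and 73 reads, or 3.57, 5.37 and 4.96 CPM. Me2, a mitochondrial malic enzyme that turns malate back into pyruvate, stood at 94.1, 103 and 93.2 CPM. Pcx was the lowest of the 32 genes per kilobase of exon (0.975 ± 0.198) and stood 39.0-fold below Pdha1 (log2 ratio -5.28 ± 0.30). Pcx took 2.50% of the reads of Pcx and Pdha1 in replicate 1 (Clopper-Pearson 95% interval 1.95 to 3.16%). The share was 3.68% in replicate 2 (interval 2.87 to 4.64%) and 3.36% in replicate 3 (interval 2.64 to 4.20%). Of the other malic enzyme genes, Me1 (cytosolic) had 3 reads in replicate 1 and 0 in the other libraries, and Me3 had none.

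Citrate synthase, the entry enzyme of the cycle, was among the most abundant of the set. Cs (chromosome 10, 128337734 to 128362479) stood at 318, 350.1 and 343 CPM, and replicate 1 was the lowest. Mitochondrial isocitrate dehydrogenase 3, which makes NADH and oxoglutarate, is built of alpha, beta and gamma subunits. Idh3a stood at 114, 118 and 114 CPM, Idh3b at 101.1, 103 and 112 CPM, and Idh3g (chromosome X, 73778963 to 73786897) at 91.5, 85.9 and 91.5 CPM. Per kilobase of exon the subunit genes lay between 22.7 ± 0.400 (Idh3a) and 33.2 ± 1.20 (Idh3g), with Idh3b at 30.7 ± 1.68 and overlapping Idh3g. Their order depended on how length was counted, since Idh3g was above Idh3b per kilobase of exon (log2 ratio 0.11 ± 0.08) and below it per kilobase of longest transcript (-0.25).

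Isocitrate is also oxidised by NADP enzymes, Idh1 in the cytosol and Idh2 in mitochondria, and the mitochondrial form prevailed. Idh1 had 72, 58 and 66 reads (3.78, 4.58 and 4.48 CPM). Idh2 stood at 37.8, 37.4 and 35.2 CPM. Idh1 held 9.09% of the reads of the pair in replicate 1 (interval 7.18 to 11.3%), 10.9% in replicate 2 (interval 8.38 to 13.9%) and 11.3% in replicate 3 (interval 8.85 to 14.2%). Per kilobase of exon Idh2 was 9.17-fold above Idh1 (log2 ratio of Idh1 to Idh2 -3.20 ± 0.19), and by longest transcript 11.02-fold.

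The oxoglutarate dehydrogenase complex resembles the pyruvate complex and shares Dld with it. Ogdh (chromosome 11, 6291633 to 6356642), its decarboxylating enzyme, had the most reads of the 32 genes and the highest mean level per kilobase of exon, at 350.1, 367 and 379 CPM and 66.9 ± 2.62 CPM per kilobase. By longest transcript it stood at 88.5 CPM per kilobase, behind Mdh2 (125) and Cs (112). In the per-kilobase order its libraries overlapped those of Mdh1 (65.5 ± 0.700). Dlst, the succinyl-transferring core, stood at 167, 167 and 171 CPM. Ogdh was 3.797-fold above Dlst per kilobase of exon (log2 ratio 1.92 ± 0.04) and 1.69-fold above it by longest transcript. Succinyl-CoA ligase joins a common alpha subunit (Suclg1) to a beta subunit that uses ADP (Sucla2) or GDP (Suclg2). Suclg1 stood at 87.4, 90.8 and 83.1 CPM. Sucla2 stood at 50.3, 54.8 and 54.3 CPM and Suclg2 at 28.4, 27.8 and 26.5 CPM, so that the ADP form had more reads in every library. Sucla2 held 63.9% of the reads of the beta subunits in replicate 1 (interval 61.4 to 66.3%), 66.3% in replicate 2 (interval 63.4 to 69.2%) and 67.2% in replicate 3 (interval 64.4 to 69.9%). The log2 ratio of Sucla2 to Suclg2 per kilobase of exon was 1.16 ± 0.11. The Suclg2 pseudogene Gm15163 (chromosome X, 157016229 to 157017530) stood at 20.1, 23.4 and 20.6 CPM, or 43.6% of their summed 48.9 ± 2.06 CPM. With those reads counted as Suclg2, the log2 ratio was 0.33.

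Fumarase and the malate dehydrogenases complete the cycle. Fh1, which encodes fumarase, stood at 71.0, 69.6 and 66.2 CPM. Mdh1, the cytosolic malate dehydrogenase, stood at 167, 170.2 and 167 CPM, and Mdh2, the mitochondrial one, at 204, 192 and 205 CPM. The cytosolic form was higher per kilobase of exon, with a log2 ratio of Mdh1 to Mdh2 of 0.22 ± 0.07. In reads the ratio was -0.25 and per kilobase of longest transcript -0.65, so the sign depended on the length used.

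Glutamate enters and leaves the cycle as oxoglutarate through glutamate dehydrogenase (Glud1) and through transaminases that pass its amino group to oxaloacetate (Got1 in the cytosol, Got2 in mitochondria) or pyruvate (Gpt2, mitochondrial). Glud1 stood at 191, 194 and 196 CPM. Got1 stood at 164, 156 and 163 CPM, Got2 (chromosome 8, 95864134 to 95888547) at 126, 136 and 141 CPM, and Gpt2 at 28.8, 27.2 and 30.99 CPM. Gpt2 had the fewest reads of the 4 in every library and stood 5.43-fold below Got2 per kilobase of exon (log2 ratio -2.44 ± 0.10). Got1 was 2.28-fold above Got2 per kilobase of exon (log2 ratio 1.19 ± 0.10), 1.47-fold by longest transcript and 1.20-fold in reads. The pseudogene Got2-ps1 (chromosome 5, 138364260 to 138365552) stood at 98.9, 96.9 and 103 CPM, so 42.6% of the summed 234 ± 9.57 CPM of Got2 and its copy lay in the pseudogene. With these reads added to Got2 the log2 ratio of Got1 to Got2 was 0.39, and that of Glud1 to Got2 was 0.05 in place of 0.72. The Glud1 copy Glud-ps held 17.1 ± 0.458 CPM, or 8.11% of their sum.

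**Figure D2:**
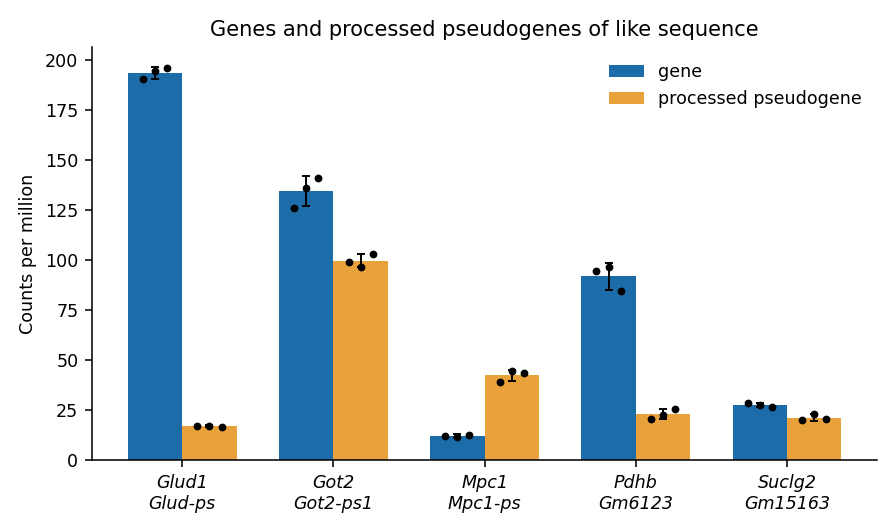
Level in CPM of each gene with a processed pseudogene of at least 10 CPM and of that pseudogene, with bars for the mean of 3 libraries, points for the libraries and lines for the SD. Mpc1-ps (42.4 CPM) stands above Mpc1 (12.2 CPM), Got2-ps1 and Gm15163 hold 42.6% and 43.6% of their pair's reads, and Glud-ps holds 8.11%.

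The carriers that move citrate (Slc25a1) and oxoglutarate (Slc25a11) across the inner membrane were at like levels. Slc25a1 stood at 46.9, 47.4 and 49.4 CPM and Slc25a11 at 58.8, 56.9 and 57.1 CPM. Slc25a1 was 1.23-fold the lower per kilobase of exon (log2 ratio -0.30 ± 0.06). Of the Slc25a11 sequence, 7.37% of 31-base words were shared with the overlapping gene Rnf167, which stood at 72.8 CPM.

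Other genes of the same pathways set these levels in context. Of 7 other enzymes of the cycle and of citrate use, all were above 1 CPM and 5 above 100 CPM. Acly, which splits exported citrate into acetyl-CoA, stood at 559 ± 5.93 CPM and the succinate dehydrogenase subunit Sdha at 249 ± 3.83 CPM. Per kilobase of exon Sdha stood at 60.5 CPM per kilobase, and its libraries overlapped those of Got1 and Cs. Of 8 other glutamine and glutamate genes, 4 were above 100 CPM, led by the glutamine transporters Slc1a5 (443 ± 5.86 CPM), Slc38a1 (323 ± 15.0 CPM) and Slc38a2 (238 ± 13.1 CPM). Among regulators and lipoylation enzymes of the dehydrogenase complexes the highest were Pdpr (79.8 CPM), the phosphatase gene Pdp2 (46.1 CPM) and Lias (27.8 CPM). Other mitochondrial carbon metabolism was led by Pck2 (78.6 CPM) and Nnt (43.9 CPM). Of 11 paralogues known from other tissues, 4 had no read (Pdk4, Me3, Mdh1b and Got1l1), and the highest were Gpt (11.9 CPM), Csl (6.98 CPM) and Gls2 (1.64 CPM). Csl shared 12.9% of its 31-base words with the far more abundant Cs (337 CPM), and whether its reads came from Cs was not tested. Gpt, the cytosolic alanine transaminase, held 43.8 ± 4.39% of the level of the alanine transaminases per kilobase of exon and Gpt2 the remaining 56.2%. By longest transcript the shares were 34.6 ± 4.07% for Gpt and 65.4% for Gpt2.

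**Figure D3:**
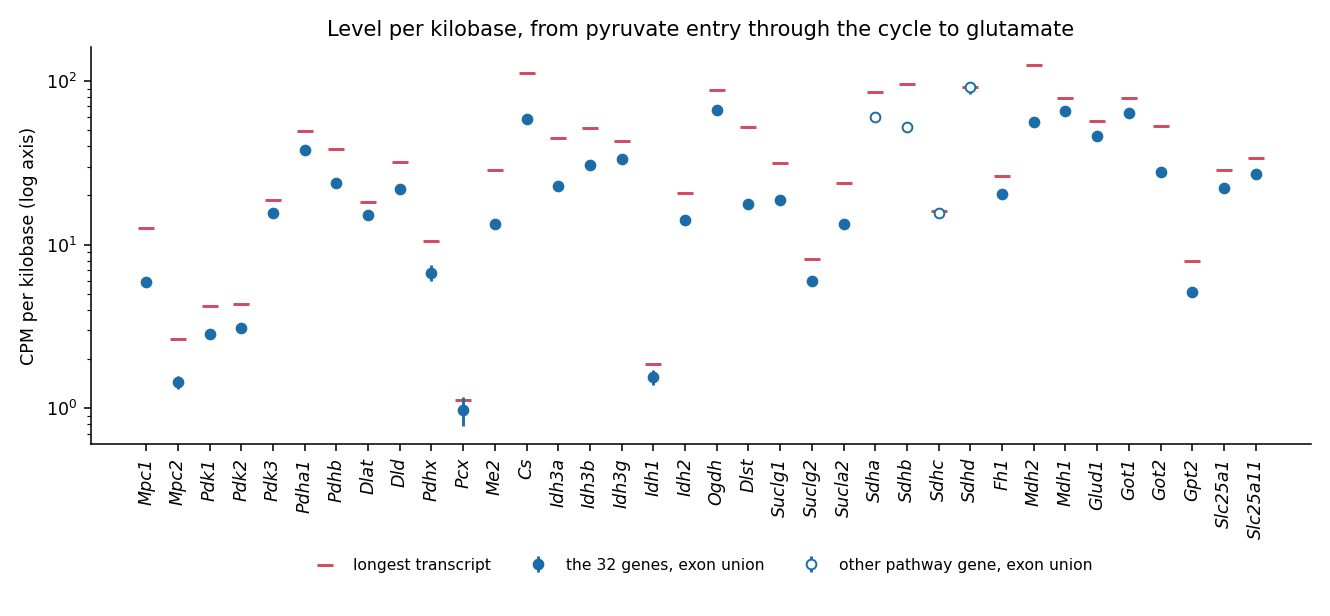
Level per kilobase from pyruvate entry through the cycle to glutamate, on a log axis in CPM per kilobase, with filled circles for the 32 genes, open circles for other genes of the pathways (mean and SD of 3 libraries, exon length) and dashes for the longest transcript as length. Pcx (0.975), Mpc2 (1.45) and Idh1 (1.55) lie lowest, and Ogdh (66.9) is the highest filled circle.

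In the order of the 32 genes per kilobase of exon the first 6 were Ogdh, Mdh1, Got1, Cs (58.3 ± 2.90), Mdh2 (56.2 ± 2.08) and Glud1 (46.0 ± 0.689). The last 6 were Gpt2 (5.14 ± 0.335), Pdk2 (3.09 ± 0.165), Pdk1 (2.83 ± 0.0332), Idh1 (1.55 ± 0.157), Mpc2 and Pcx. Of the 31 neighbours in this order, 14 had overlapping libraries, among them Ogdh and Mdh1, Cs and Mdh2, and Idh1 and Mpc2. Overlap was judged on ranges over the libraries, and these ranges do not rank such neighbours. Within each library Idh1 stood above Mpc2, at 1.36, 1.65 and 1.62 against 1.35, 1.60 and 1.40 CPM per kilobase in replicates 1, 2 and 3. The order of Ogdh and Mdh1, and of Cs and Mdh2, changed between libraries. Whether such small gaps exceed counting noise was not tested. The set compared in 21 ratios (subunits of a complex or enzymes of a reaction) had the same sign in all 3 libraries for 21 of 21, and 17 kept it per kilobase of exon, per kilobase of longest transcript and in reads. A difference of more than 2-fold was found for 10 pairs, and for 4 of them under all 3 ways of counting length (Pdk2 to Pdk3, Pcx to Pdha1, Idh1 to Idh2 and Gpt2 to Got2). The exact two-sided sign-flip permutation test over the libraries gave p = 0.25 for each ratio, raw and Benjamini-Hochberg adjusted, the smallest that 3 libraries allow.

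**Figure D4:**
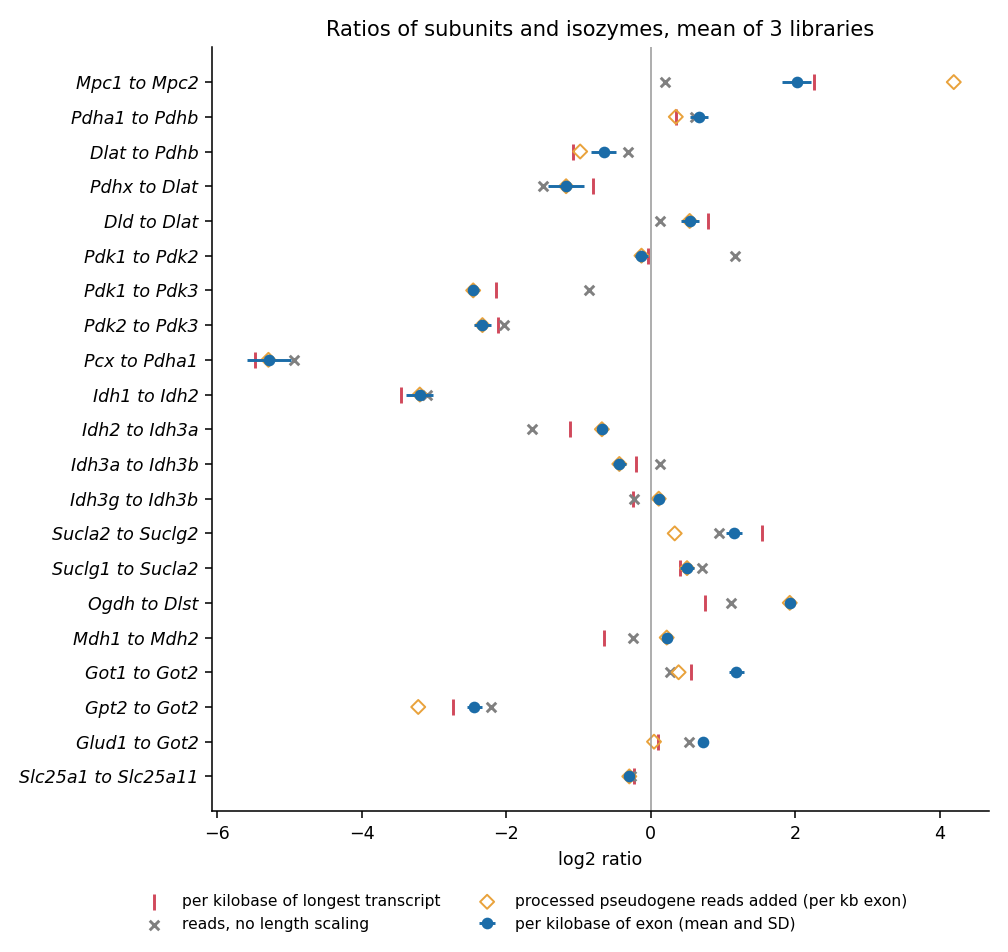
Mean log2 ratio of 21 pairs of genes over 3 libraries, with filled circles and SD lines per kilobase of exon, dashes per kilobase of longest transcript, crosses for reads without length scaling and open diamonds with pseudogene reads added. The diamonds of Mpc1 to Mpc2 (4.20), Sucla2 to Suclg2 (0.33) and Got1 to Got2 (0.39) lie away from the circles (2.02, 1.16 and 1.19), and Mdh1 to Mdh2 lies on both sides of 0.

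Between libraries the genes differed little. The replicates were compared in edgeR by a likelihood-ratio test at a dispersion of 0, which asks whether libraries differ by more than counting noise and says nothing of conditions. It called 5 of the 32 genes (15.6%) at a Benjamini-Hochberg adjusted p under 0.05, where it called 13.7% of all 13500 genes tested. The share among the 32 was thus near that of all genes. The 5 were Cs (adjusted p = 1.3e-05), Ogdh (adjusted p = 0.000371), Got2 (adjusted p = 0.00493), Pdhb (adjusted p = 0.0181) and Idh3b (adjusted p = 0.034). Cs, Ogdh, Got2 and Idh3b were lowest in replicate 1, and Pdhb was lowest in replicate 3. At an unadjusted p under 0.05 the count was 10 of the 32, against 27.8% of all genes. Abundant genes were called more often: 37.2% of all genes between 200 and 400 CPM (2 of the 3 genes of the set there), 26.1% between 100 and 200 CPM (2 of 8), 16.8% between 50 and 100 CPM (1 of 9) and 9.16% between 10 and 50 CPM (0 of 9). The median range over the libraries was 0.12 log2 units for the 32 genes and 0.17 for all genes. Their median coefficient of variation was 4.16%, beside 2.92% from counting alone, and for 13 of the 32 the SD was below counting noise.

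The calls did not rest on all libraries alike. Without replicate 1 the call for 1 gene was left (Pdhb), with 8.48% of all genes called, and without replicate 3 also for 1 (Cs), with 5.61% of all genes called. Without replicate 2 the count was 5, with 9.03% of all genes called. With no expression filter 4 of the 32 were called (7.28% of all genes), with unscaled totals also 4 (13.6% of all genes), and in both the lost gene was Idh3b. The Pdhb call also depended on its pseudogene. Gm6123 varied as well (adjusted p = 0.0416 in the same edgeR test), lowest in replicate 1 and highest in replicate 3, where Pdhb was lowest. The sum of Pdhb and Gm6123 stood at 115, 119 and 110.3 CPM and was not called (adjusted p = 0.292 in edgeR's test). The sum of Got2 and Got2-ps1 was called, as Got2 alone was (adjusted p = 0.00714 in edgeR's test, lowest in replicate 1). Of the 40 other pathway genes 32 could be tested, and 9 (28.1%) varied, beside 13.7% of all tested genes and 26.1% of those between 100 and 200 CPM, among them Sdhd, Lias, Slc38a1, Slc38a2, Slc25a12, Pck2 and Gpt.

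**Figure D5:**
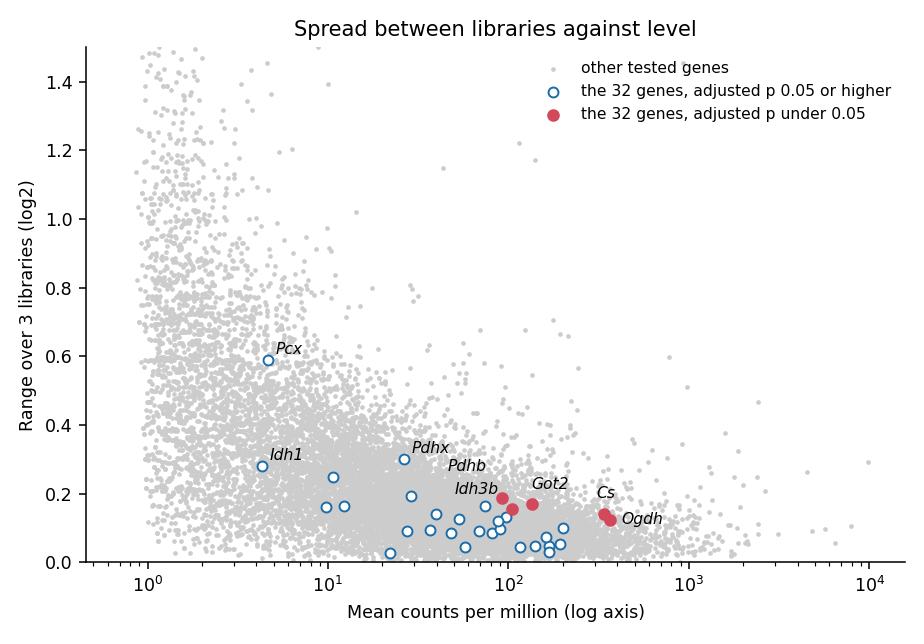
Range over the 3 libraries in log2 units against the mean level in CPM (log axis) for all tested genes (grey) and the 32 genes, filled where the adjusted p of the test between libraries was under 0.05. The axis ends at 1.5, with 45 genes above it, and the 5 filled points (Cs, Ogdh, Got2, Idh3b, Pdhb) lie among the abundant genes with ranges under 0.2.

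Shared sequence was limited for most of the set. For 24 of the 32 genes under 5% of the 31-base words of their transcripts occurred in a transcript of another gene, and for 11 none did. The highest shares were those of Got2 (30.9%), Mpc1 (30.8%), Suclg2 (20.7%), Pdhb (17.9%), Pdha1 (15.8%) and Glud1 (10.4%). Pdha1 shared most with the neighbouring gene Map3k15, which stood at 0.802 CPM. Of the Mpc1 words 18.2% were shared with 4930506C21Rik, a transcript with 1 read in all, and of the Got2 words 23.8% with Gm10874. Gm10874 (chromosome 5, 138363719 to 138388287) spans Got2-ps1, so it is not a separate locus. Its symbol was not in the count table. The genes lay on 16 of 21 chromosomes, with 4 on chromosome 11 and 3 (Pdha1, Pdk3 and Idh3g) on chromosome X.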

How the data were processed

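The deposited table holds unnormalized counts of reads for each gene symbol in the 3 libraries, and no column of another sample was present. Per the labels' protocols, RNA was extracted with Trizol and libraries were made with a kit for Ion Proton sequencing. The genome build was mm10, per the submitters' processing notes. Not given in the sources used here are the aligner, the counter, the annotation, the use of strand and what was done with multi-mapping reads.

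CPM is the count divided by the column total and multiplied by 1000000. Positions, exon lengths (the union of exons, or the longest transcript) and shared 31-base words on either strand came from GENCODE vM21 (GRCm38). Coding sequences were aligned to pseudogenes from the same genome. With a single group no contrast exists, so edgeR's quasi-likelihood test was not applicable. Libraries were compared with edgeR 4.0.16 (TMM factors, a likelihood-ratio test in glmFit at dispersion 0 and Benjamini-Hochberg adjustment over every gene reaching 1 CPM in 2 or more libraries), which was tested on simulated data. Ratios had 0.5 added to each count and, beside the per-library Clopper-Pearson interval, an exact sign-flip test.

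The set of 32 genes and the other lists were put together with earlier results of these data known, although the rule for the set names symbols only. Named were all 32 genes, the 3 highest of each other list, those that varied and those with no read, and for markers the 2 highest and those at 0. Some genes that this rule names are not reported here. The neutrophil markers Ngp and Mpo were the highest of their list at 0.113 and 0.112 CPM. Alternatives were DESeq2 1.42.0 size factors, unscaled totals, other filters and lengths, 0.1 added to each count and each library left out. Adding pseudogene reads was chosen after seeing the data. R 4.3.3, Python 3.11.15, numpy 2.4.6, pandas 2.3.3, scipy 1.17.1 and matplotlib 3.10.9 were used.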

Additional observations from a re-analysis of the deposited data

How the results depend on the processing

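No paired analysis was possible because all 3 replicates belong to 1 group. The count of genes that varied between libraries, 5 of 32, was 5 with DESeq2 size factors or a minimum of 10 counts in every library, and 4 with unscaled totals, with no expression filter or with pseudogene reads added. With a library left out it ranged from 1 to 5. It was 1 without replicate 1, 1 without replicate 3 and 5 without replicate 2, and the cause was not tested. Every one of the 32 genes stayed at 1 CPM or more with TMM library sizes and with any library left out. Of the 21 ratios none changed sign with 0.1 added to each count, with a library left out or with pseudogene reads added. In reads, with no length scaling, the log2 ratio of Pdk1 to Pdk2 was 1.17, of Idh3a to Idh3b 0.13, of Idh3g to Idh3b -0.23 and of Mdh1 to Mdh2 -0.25, each of the opposite sign to the value per kilobase of exon. Per kilobase of the longest transcript Idh3g to Idh3b was -0.25 and Mdh1 to Mdh2 -0.65. Which transcripts these cells use is not known from gene counts, so ratios under about 2-fold between genes are uncertain. Larger ratios can depend on the length too. Of the 10 pairs over 2-fold apart per kilobase of exon, 4 stayed so under all 3 ways of counting length. Mpc1 to Mpc2 was 4.06-fold per kilobase of exon and 1.15-fold in reads. With 68 to 73 reads for Pcx and 58 to 72 for Idh1, counting noise limits these genes most.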

Other observations

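The start regions of the genes were rich in CpG, as those of expressed genes were. RefSeq (GRCm38.p6) gave the 250 bases before a start site for 30 of the 32 genes, in 40 windows, all but Idh3a and Me2; windows of a gene with several starts can overlap. At least 10 CpG were found in 87.5% of these windows, against 73.1% of the 10523 windows of tested genes and 37.8% of all 32851 windows. The letters CCAAT, searched on both strands, were in 52.5% of the windows, against 35.8% for tested genes and 33.8% of all. GGGCGG was in 62.5%, against 58.3% and 32.7%. CACGTG was in 15.0% (starts of Ogdh, Pcx, Pdk2 and Slc25a1), against 8.73% and 6.02%, and AAGGTCA in 2.50% (Got1), against 2.74% and 4.08%. None of these motifs contains another of them, and a match is a description of letters, not a binding site.

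The 4 succinate dehydrogenase genes were unequal per kilobase of exon, with Sdhd at 91.4, Sdha at 60.5, Sdhb at 52.6 and Sdhc at 15.6 CPM per kilobase. Per kilobase of longest transcript Sdhb stood at 95.5, Sdhd at 91.4 and Sdha at 86.0, so the order of these 3 depended on the length used, and Sdhc was the lowest on both scales. Sdhb and Sdhc were singled out after their values were seen.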
